A study of Rattus norvegicus with 12 samples.

Results

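The genes described here encode the sensors and editors of double-stranded RNA that interferon induces: the 2-5A synthetase family (Oas1a, Oas1b, Oas1k, Oas2, Oas3, Oasl and Oasl2), the kinase PKR (Eif2ak2) and the RNA editor Adar. They were taken by symbol from the deposited expression tables, and these 9 genes stand among 18469 in all.

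RNA was sequenced from neonatal rat ventricular myocytes (NRVMs), heart muscle cells of newborn Sprague-Dawley rats grown in culture, in 12 libraries. The siNeg libraries came from cells given a negative control siRNA and left untreated, and the siNeg.PE libraries from cells given the same siRNA, then phenylephrine (PE), an α-adrenergic agonist that enlarges cardiomyocytes, for 36 h from 12 h after transfection. The siSlc25a26 and siSlc25a26.PE libraries came from cells given an siRNA against Slc25a26, the mitochondrial carrier of S-adenosylmethionine, without and with PE on the same schedule. Each group had 3 libraries, described as independent biological replicates. All 4 groups were transfected, and no group was left without siRNA. The labels name the siRNA against Slc25a26 without its sequence or how many duplexes it held, so the loss of Slc25a26 and other effects of that siRNA, itself a double-stranded RNA, cannot be told apart. The number of rats behind a culture was not given.

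Slc25a26 itself checked the labels. Its level in siNeg was 33.7, 32.2 and 29.4 CPM (counts relative to library size, adjusted by edgeR's TMM factors), against 15.7, 14.7 and 14.7 CPM in siSlc25a26, and the log2 fold change was -1.08 (adjusted p = 1.08e-05). Under PE the levels were 114, 106 and 86.9 CPM in siNeg.PE. The libraries labelled siSlc25a26.PE gave 101, 104 and 98.2 CPM, inside the range of the controls, with a log2 fold change of -0.01 (adjusted p = 0.969). The PE labels were checked with Nppa, the atrial natriuretic peptide that marks hypertrophy, at log2 4.63 with PE in siNeg and 4.51 in siSlc25a26. Library totals lay between 24770954 and 28709062 rounded counts, so 3 counts, the smallest number taken as detected, stood for 0.0983 to 0.121 CPM. Of the marker sets for cell types, cardiomyocyte markers summed to between 25074 and 32428 CPM over the libraries, with all 10 detected. Markers of macrophages and other immune cells summed to 114 to 138 CPM in siNeg, 63.2 to 71.5 in siNeg.PE, 60.5 to 69.8 in siSlc25a26 and 42.5 to 50.3 in siSlc25a26.PE, over 11 genes. Fibroblast markers summed to 21922 to 24035 CPM in siNeg and 12403 to 13955 in siSlc25a26, and with PE to 11818 to 12297 in siNeg.PE and 8665 to 9475 in siSlc25a26.PE.

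Double-stranded RNA is a sign of viral infection. On binding it, the enzymatic members of the 2-5A synthetase family join ATP into short 2′-5′ oligoadenylates, a second messenger of antiviral defence. RNA levels do not show which members make it. PKR responds to the same RNA by phosphorylating eIF2α, which halts translation, and ADAR changes adenosines of paired RNA to inosines, which lowers its recognition by these sensors. Type I interferon induces this set through the factor ISGF3, which binds the interferon-stimulated response element (ISRE) in promoters.

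RefSeq promoter windows of the rat assembly GRCr8, from 250 bases before to 50 bases after the annotated start, were found for 6 of the 9 genes. No window was found for Oas1k, Oas2 and Adar. The ISRE core was searched as GAAANNGAAA on either strand (TTTCNNTTTC on the other), where N is any base. It was present in the windows of 5 of the 6 genes (Oas1a, Oas1b, Oas3, Oasl2 and Eif2ak2) and in 3.92% of 33469 rat promoter windows of the same length. The 250 bases before the start of all 6 are shown, so that genes called higher in siSlc25a26 and Oas3, which was not, can be read side by side. Capitals mark the ISRE core, and overlapping matches run together.
Oas1a (chr12:41330216-41330465, forward strand): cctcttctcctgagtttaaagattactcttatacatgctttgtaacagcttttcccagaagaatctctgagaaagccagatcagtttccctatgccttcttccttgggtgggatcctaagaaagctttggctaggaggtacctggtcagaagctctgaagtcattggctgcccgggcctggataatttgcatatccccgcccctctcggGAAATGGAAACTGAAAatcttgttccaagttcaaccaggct
Oas1b (chr12:41395853-41396102, reverse strand): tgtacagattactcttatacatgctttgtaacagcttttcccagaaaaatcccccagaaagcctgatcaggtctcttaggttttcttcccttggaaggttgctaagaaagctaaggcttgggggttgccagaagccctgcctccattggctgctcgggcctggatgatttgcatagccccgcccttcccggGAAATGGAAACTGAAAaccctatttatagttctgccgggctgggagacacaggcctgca
Oasl2 (chr12:47383186-47383435, reverse strand): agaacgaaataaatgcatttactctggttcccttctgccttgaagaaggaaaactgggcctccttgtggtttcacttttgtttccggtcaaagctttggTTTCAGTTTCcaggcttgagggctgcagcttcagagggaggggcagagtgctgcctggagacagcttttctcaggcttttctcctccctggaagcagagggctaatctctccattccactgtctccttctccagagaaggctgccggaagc
Oasl (chr12:47356293-47356542, reverse strand): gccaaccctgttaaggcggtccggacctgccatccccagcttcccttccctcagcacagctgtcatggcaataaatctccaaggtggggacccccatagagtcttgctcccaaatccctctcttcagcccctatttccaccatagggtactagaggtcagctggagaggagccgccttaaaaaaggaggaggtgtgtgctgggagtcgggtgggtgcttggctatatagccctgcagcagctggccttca
Oas3 (chr12:41439482-41439731, forward strand): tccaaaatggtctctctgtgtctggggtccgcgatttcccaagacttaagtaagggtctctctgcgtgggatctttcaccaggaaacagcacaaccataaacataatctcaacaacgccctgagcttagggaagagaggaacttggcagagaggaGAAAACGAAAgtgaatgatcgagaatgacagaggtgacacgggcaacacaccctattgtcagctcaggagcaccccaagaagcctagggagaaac
Eif2ak2 (chr6:21940904-21941153, forward strand): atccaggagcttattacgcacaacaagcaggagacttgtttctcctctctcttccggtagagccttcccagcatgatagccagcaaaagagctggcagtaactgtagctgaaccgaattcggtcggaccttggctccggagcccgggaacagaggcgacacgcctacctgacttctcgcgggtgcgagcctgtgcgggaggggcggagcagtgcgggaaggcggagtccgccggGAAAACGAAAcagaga
Oas1a and Oas1b each held 2 overlapping matches close to the start, at bases -41 to -26 and -59 to -44 counted from it. The match of Eif2ak2 lay at -16 to -7, that of Oas3 at -95 to -86 and that of Oasl2, on the reverse strand, at -151 to -142. Oasl held none of these letters in its window. The GAS core TTCNNNGAA, the element linked to interferon γ, was found in Oas1a and Oas1b and in 8.87% of all windows.

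**Figure D1:**
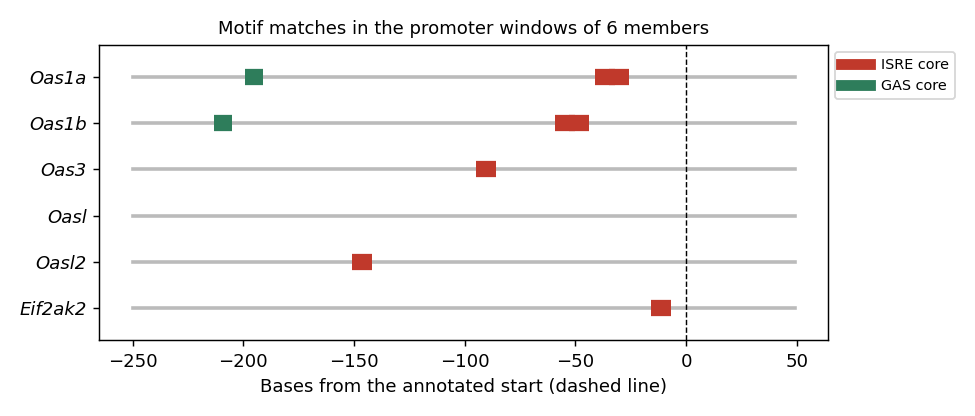
Positions of ISRE core (red) and GAS core (green) matches in the promoter windows of 6 genes, in bases from the annotated start (dashed line at 0). The 5 genes with an ISRE match carry it upstream of the start, and Oas1a and Oas1b also carry a GAS match farther upstream.

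The first comparison asked what the siRNA against Slc25a26 did in cells without PE. Nearly the whole set was higher: 7 of the 8 genes tested were called higher and 0 lower, with log2 fold changes from 0.11 to 6.71 (median 5.17, against 0.01 over all genes tested). Calls needed more than a 1.5-fold difference together with an adjusted p below 0.05, from edgeR's quasi-likelihood test adjusted over all genes tested by Benjamini and Hochberg. By that rule 8.92% of the 13829 genes tested were called higher and 7.2% lower. Oas1k did not pass the filter on low counts, and Oas2 passed it only through its high group, so the count and the median describe the 8 genes and no more.

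Among the 2-5A synthetases, Oas1a, an enzymatic family member, measured 3.60, 4.99 and 2.45 CPM in the siNeg libraries and 372, 327 and 352 CPM in siSlc25a26. The groups lay far apart with no overlap. The log2 fold change was 6.58 (SE 0.168, adjusted p = 6.08e-09), a 95.7-fold difference. Oas1b, its paralogue, measured 8.34, 8.65 and 4.97 CPM in siNeg and 215, 204 and 215 CPM in siSlc25a26. Here too every siSlc25a26 library stood above every siNeg library, and the log2 fold change was 4.85 (SE 0.155, adjusted p = 2.74e-08). How alike the sequences of the Oas1 rows are was not measured. GRCr8 gives Oas1g as a synonym of Oas1a, although the deposited tables hold a row for each. The deposited counts were not whole in 11 of 12 libraries for Oas1a, 10 for Oas1b, 11 for Oas1g and 10 for Oas1i. Reads had thus been assigned in fractions, and which rows shared them was not given. Oas1g, for example, was listed at 65.79, 0 and 84.4 counts in siNeg, while Oas1i was listed at 43.81, 142.58 and 0. With the counts of all Oas1 rows summed to a single row, the log2 fold change was 5.58 in place of 6.58 for Oas1a. The division of the rise among Oas1 rows is therefore uncertain, while the rise of their sum was called.

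Oas2, a larger synthetase built of repeated OAS units, was near the limit of detection in siNeg, at 9, 5 and 3 counts, and stood at 747, 594 and 671 counts in siSlc25a26. All 3 libraries of the second group were far above the first. In CPM that was 0.212 ± 0.111 against 22.7 ± 2.95 (SD, n = 3 each), and edgeR gave a log2 fold change of 6.71 (SE 0.232, adjusted p = 4.91e-08). Oas2 passed the filter on low counts only through siSlc25a26, so that call is no support beyond these counts. From 17 and 2012 summed counts, the ratio scaled for depth was 106, with a 95% exact counting interval of 66.3 to 183. Oas3, the largest synthetase, stood apart from its relatives. It measured 1.62, 1.99 and 0.963 CPM in siNeg and 1.86, 1.54 and 1.53 CPM in siSlc25a26. The groups overlapped, and the log2 fold change of 0.11 (SE 0.267) was not called (adjusted p = 0.754). Without siNeg replicate 3, the lowest library, the value was -0.15, so its direction rested on that library. None of the 12 deposited counts of Oas3 was whole. Oas1k, a further paralogue, was barely detected, with 4 counts over the 3 siNeg libraries and 42 over siSlc25a26, a ratio of 9.44 for depth (95% exact counting interval 3.42 to 36.2). Its highest siNeg library was at 0.0735 CPM and its lowest siSlc25a26 library at 0.203 CPM, so the groups did not overlap.

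The Oas-like genes rose with the synthetases. Oasl, whose human counterpart binds the RNA sensor RIG-I through a ubiquitin-like tail, measured 8.82, 6.27 and 5.78 CPM in siNeg and 367, 326 and 359 CPM in siSlc25a26. Every siSlc25a26 library stood above every siNeg library, at a log2 fold change of 5.65 (SE 0.133, adjusted p = 3.88e-09). Oasl2, its neighbour on the chromosome, measured 5.07, 7.32 and 3.74 CPM in siNeg and 246, 227 and 246 CPM in siSlc25a26. The groups did not overlap, and the log2 fold change was 5.48 (SE 0.168, adjusted p = 2.09e-08). Every deposited count of Oasl, Oas2 and Adar was whole, so no sharing of reads was visible in those rows, whereas 8 of the 12 counts of Oasl2 and 7 of those of Eif2ak2 were not whole.

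Eif2ak2, the gene for PKR, measured 8.97, 12.4 and 12.5 CPM in siNeg and 146, 136 and 135 CPM in siSlc25a26. The increase was 12.3-fold, a log2 fold change of 3.62 (SE 0.113, adjusted p = 2.32e-08), with no overlap. Adar, the editing enzyme, was well expressed without either treatment. It measured 121, 119 and 123 CPM in siNeg and 342, 332 and 354 CPM in siSlc25a26. The spread within groups was small beside this gap, and the increase was 2.84-fold (SE 0.0472 on the log2 scale, adjusted p = 2.46e-08). The tables count whole genes, so the interferon-inducible and the constitutive ADAR proteins could not be told apart.

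**Figure D2:**
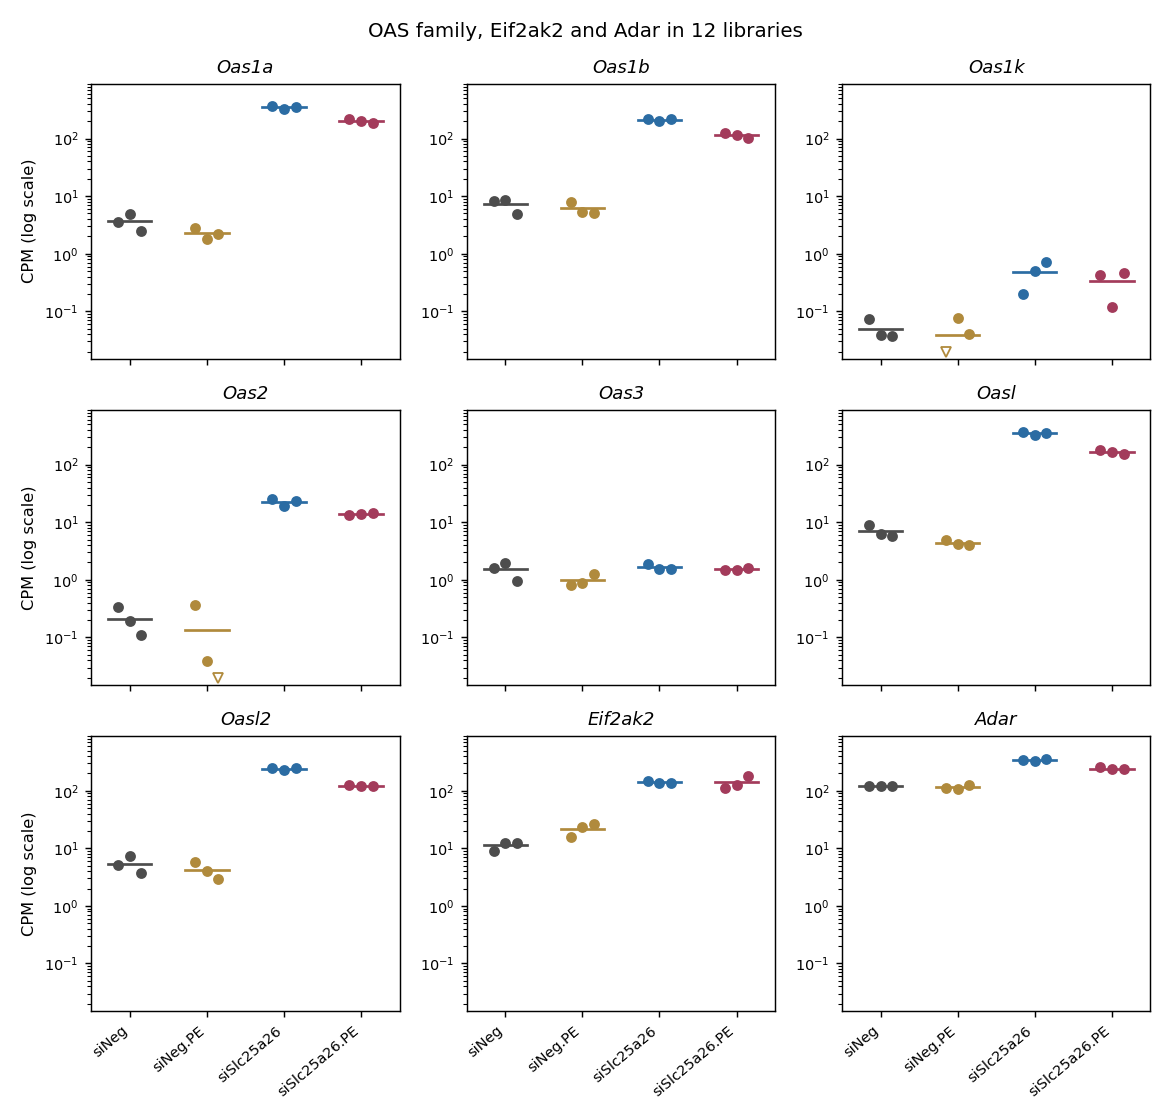
Level of each gene in CPM (TMM-scaled, log axis) in the 12 libraries by group, with points for libraries, bars for group means and open triangles for libraries at 0 counts. In every panel except Oas3 the siSlc25a26 and siSlc25a26.PE libraries sit above all siNeg and siNeg.PE libraries, by 2.84-fold in Adar and 95.7-fold in Oas1a without PE.

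The second comparison set the siRNAs against each other under PE, where Slc25a26 RNA did not differ. Again 7 of 8 genes tested were called higher and 0 lower (log2 fold changes 0.64 to 6.67, median 4.54, against -0.00 over all genes), while 7.71% of 13671 genes were called higher and 8.1% lower. Oas2 again passed the filter on low counts only through its high group, and Oas1k did not pass it. Oas1a measured 2.85, 1.78 and 2.21 CPM in siNeg.PE and 216, 204 and 184 CPM in siSlc25a26.PE. The log2 fold change was 6.48 (SE 0.141, adjusted p = 5.44e-09), or 5.12 for the summed Oas1 rows. Oas1b (log2 4.22), Oasl (5.24) and Oasl2 (4.86) were also called higher, with adjusted p from 4.23e-09 to 1.22e-07 and no overlap of the groups. Oas2 was at 9, 1 and 0 counts in siNeg.PE and at 343, 349 and 380 counts in siSlc25a26.PE. The library of 9 counts held nearly all the Oas2 counts of its group, and the ratio for depth was 105 (95% exact counting interval 56.7 to 219). For Oas1k the summed counts were 3 and 26, a ratio of 8.46 (2.59 to 43.7).

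Oas3 measured 0.803, 0.888 and 1.29 CPM in siNeg.PE and 1.51, 1.48 and 1.61 CPM in siSlc25a26.PE. The groups did not overlap, but the log2 fold change of 0.64 (SE 0.244) missed the threshold (adjusted p = 0.0647). Without siNeg.PE replicate 3, the highest library of its group, it was 0.84 and was called (adjusted p = 0.0352). Eif2ak2 measured 15.8, 23.1 and 26.4 CPM in siNeg.PE and 114, 128 and 177 CPM in siSlc25a26.PE. All 3 libraries of the second group stood above the first, at a log2 fold change of 2.70 (SE 0.208, adjusted p = 1.95e-05). Adar measured 113, 106 and 128 CPM in siNeg.PE and 254, 236 and 235 CPM in siSlc25a26.PE, again without overlap, at a log2 fold change of 1.08 (SE 0.0739, adjusted p = 8.92e-06).

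**Figure D3:**
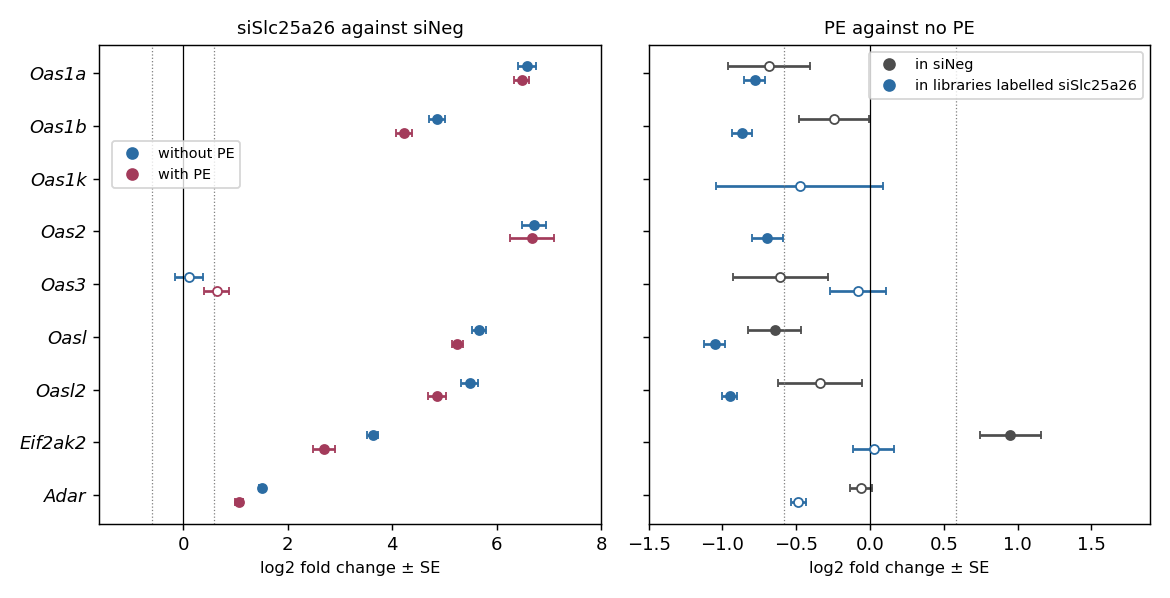
Log2 fold change with its standard error (bars) for each gene, on the left siSlc25a26 against siNeg without and with PE, on the right PE against no PE within each siRNA. Filled points were called, open points were not, dotted lines mark the 1.5-fold threshold, and genes removed by the low-count filter have no point. On the left all genes but Oas3 lie between 1.08 and 6.71, and on the right the Oas genes lie at or below 0 while Eif2ak2 in siNeg lies at 0.95.

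The next comparisons asked what PE did under each siRNA. They share libraries with the comparisons above, so their values are given beside them and not as further support. In siNeg, 7 genes could be tested, of which 1 was called higher and 1 lower, where 12.4% of 13719 genes were called higher and 8.24% lower. The gene called higher was Eif2ak2. It went from 8.97, 12.4 and 12.5 CPM in siNeg to 15.8, 23.1 and 26.4 CPM in siNeg.PE, without overlap, a log2 fold change of 0.95 (SE 0.205, adjusted p = 0.00601). The gene called lower was Oasl, which went from 8.82, 6.27 and 5.78 CPM to 4.98, 4.25 and 4.10 CPM. Its libraries did not overlap either, and the log2 fold change was -0.65 (SE 0.180, adjusted p = 0.0180). The call on Oasl was lost without siNeg replicate 1 (-0.43, adjusted p = 0.0507), without siNeg.PE replicate 2 (-0.61, adjusted p = 0.0685) and without siNeg.PE replicate 3 (-0.60, adjusted p = 0.0515), and each of these left 1 called gene. Without siNeg replicate 3, the library with the least Oas1a and Oas3, 4 genes were called. They included Oas1a at -0.91 and Oas3 at -0.85, which in the full comparison stood at -0.69 (adjusted p = 0.0705) and -0.61 (adjusted p = 0.147). Oas1a was also called without siNeg.PE replicate 1 (-0.87, adjusted p = 0.0483), with the replicate number as a block (-0.66, adjusted p = 0.0415) and with all 12 libraries in 1 fit (-0.67, adjusted p = 0.0276), but the summed Oas1 rows were not called (-0.31, adjusted p = 0.268). Oas1b (-0.25), Oasl2 (-0.34) and Adar (-0.06) had overlapping groups and were not called. Between the same libraries, 5 of 10 fibroblast and 6 of 9 immune markers tested were called lower with PE and 0 higher. Of 10 cardiomyocyte markers 4 were called higher and 0 lower, and of 7 endothelial markers 0 higher and 3 lower. Of 6 smooth muscle markers 2 were called higher and 3 lower. The part of these shifts in the values above was not tested.

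In siSlc25a26 all 9 genes were tested. None was called higher and 5 were called lower, where 10.1% of 13776 genes were called higher and 10.4% lower. The 5 genes were Oas1a, Oas1b, Oas2, Oasl and Oasl2, which fell by 0.70 to 1.05 on the log2 scale from the high levels given above. Slc25a26 RNA differed between these groups too, at 15.7, 14.7 and 14.7 CPM in siSlc25a26 and 101, 104 and 98.2 CPM in siSlc25a26.PE. It also rose with PE in siNeg. PE and the level of Slc25a26 therefore cannot be told apart here. Oasl fell most, to 0.482 of its level without PE (log2 -1.05, SE 0.0689, adjusted p = 3.75e-06), from 367, 326 and 359 CPM to 180, 168 and 153 CPM. Oasl2 followed at -0.95 (SE 0.0508, adjusted p = 1.12e-06), Oas1b at -0.87, Oas1a at -0.78 and Oas2 at -0.70, and in each gene every siSlc25a26.PE library lay below every siSlc25a26 library. Adar went from 342, 332 and 354 CPM to 254, 236 and 235 CPM, also without overlap. Its log2 fold change of -0.49 (SE 0.0507, adjusted p = 6.16e-05) lay inside the 1.5-fold threshold, which limma on log2(FPKM + 1) passed at -0.63. Eif2ak2 went from 146, 136 and 135 CPM to 114, 128 and 177 CPM. The third siSlc25a26.PE library was the highest of the 6 and the first the lowest, the groups overlapped, and the log2 fold change was 0.03 (SE 0.140, adjusted p = 0.893). Oas3 (-0.08) and Oas1k (-0.48) were not called. Here 1 of 10 fibroblast and 1 of 9 immune markers tested were called lower with PE and 0 higher. Of 10 cardiomyocyte markers 4 were called higher and 0 lower. Of 7 endothelial markers 1 was called higher and 1 lower, and of 6 smooth muscle markers 3 higher and 1 lower.

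Whether PE acted differently under the siRNAs was tested as the difference of both PE effects, fitted on all 12 libraries. Slc25a26 RNA was lower in siSlc25a26 than in siNeg but did not differ between the siRNAs under PE. PE and the extent of the knockdown therefore cannot be told apart in this difference. Of the 9 genes 0 were called higher and 1 lower, where 2.16% of 14097 genes were called higher and 3.34% lower. The called gene was Eif2ak2, at -0.95 on the log2 scale (SE 0.268, adjusted p = 0.0402): PE went with a rise in siNeg and with no called change in siSlc25a26. The call did not hold for most sets of 11 libraries. Without siNeg replicate 1 or 2 the values were -0.81 (adjusted p = 0.103) and -1.02 (0.0627), and without siNeg.PE replicate 2 or 3 they were -0.89 (0.0919) and -0.78 (0.111). Without siSlc25a26 replicate 1, 2 or 3 they were -0.90 (0.0902), -0.95 (0.0829) and -0.96 (0.0668), and without siSlc25a26.PE replicate 1 or 2 they were -0.82 (0.0704) and -0.89 (0.0949). Adar differed in the same direction, by -0.44 (SE 0.0880, adjusted p = 0.00693), inside the 1.5-fold threshold. For Oas1b (-0.65, adjusted p = 0.107), Oasl2 (-0.64, adjusted p = 0.154) and Oasl (-0.43, adjusted p = 0.162) no difference was called, nor for Oas1a (-0.12), Oas1k (-0.19), Oas2 (-0.05) and Oas3 (0.51). Without siNeg replicate 1 Oasl was called at -0.64 (adjusted p = 0.0185), and without siNeg replicate 2 Oasl2 was called at -0.92 (adjusted p = 0.0422). Limma on log2(FPKM + 1) called Oas1b (-0.82, adjusted p = 0.0259), Oas2 (-0.72, 0.00481), Oasl (-0.72, 0.00960) and Oasl2 (-0.85, 0.0237). On log2(FPKM + 0.1) these genes were not called. A pseudocount of 1 shrinks changes at low levels, most of all for Oas2, at 0.0967 FPKM in siNeg and 0.06 in siNeg.PE. These calls therefore weigh the fall in siSlc25a26 more than the change in siNeg.

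The order of the genes within a group was read from the deposited FPKM values, which divide by gene length. In siNeg, Adar led at 22.1 ± 0.405 FPKM (SD, n = 3), above Oas1b (4.17), Oasl (3.71), Eif2ak2 (3.07), Oas1a (2.66) and Oasl2 (2.33), among which each range overlapped that of the gene above it. Oas3 followed at 0.493 FPKM and Oas2 at 0.0967, whose range overlapped that of Oas1k at 0.04. In siNeg.PE, Eif2ak2 came second at 5.76 FPKM after Adar at 20.5, its range overlapping that of Oas1b at 3.41. In siSlc25a26 the order was another. Oas1a led at 264 ± 16.1 FPKM, before Oasl (195), Oas1b (125), Oasl2 (107), Adar (67.7), Eif2ak2 (39.3) and Oas2 (10.9), with no overlap between neighbours, and Oas3 (0.553) overlapped Oas1k (0.373) at the foot. In siSlc25a26.PE the means kept that order, from Oas1a at 136 FPKM to Oas1k at 0.233, but the range of Eif2ak2 (35.4) overlapped that of Adar (43.5). A split of reads among Oas1 rows would touch the places of Oas1a and Oas1b.

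**Figure D4:**
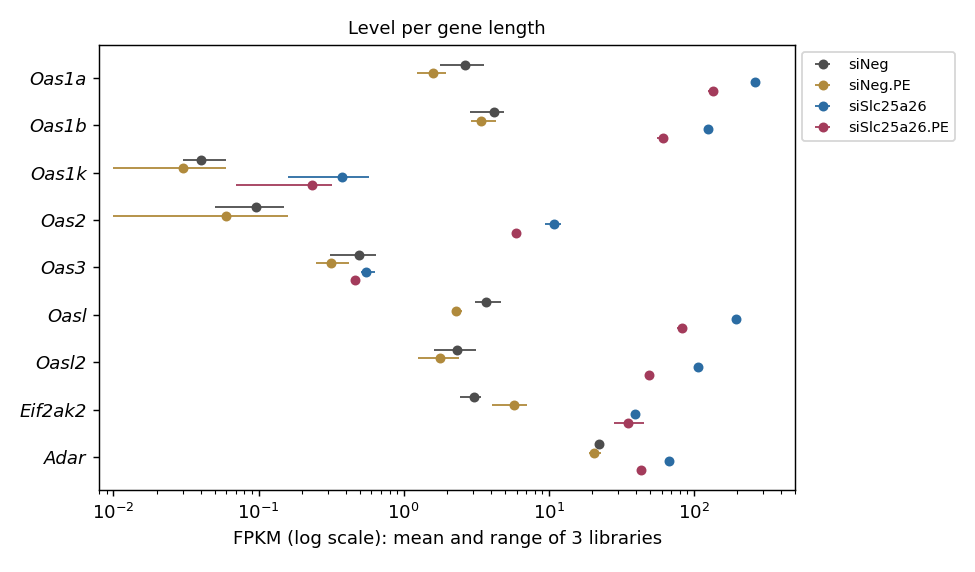
FPKM of each gene by group on a log axis, as the mean (point) and range (line) of 3 libraries, with values of 0 drawn at 0.01. Adar leads in siNeg and siNeg.PE at 22.1 and 20.5 FPKM, while Oas1a leads in siSlc25a26 and siSlc25a26.PE at 264 and 136 FPKM.

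The members' log2 CPM over the 12 libraries correlated at 0.841 to 0.999 (Pearson) for pairs without Oas3, and at 0.448 to 0.606 for pairs with Oas3. These libraries fall into the same high and low groups, so the values mostly describe the group difference. The genes outside the set whose profile was most like the mean of the Oas genes were Rtp4 (0.999), Usp18 (0.998), the protease of ISG15, and RT1-T24-3 (0.998). For Eif2ak2 they were Ifih1 (0.995), LOC685067 (0.994) and Slfn4 (0.992), and for Adar Zc3h7b (0.996), Zcchc2 (0.995) and LOC500956 (0.994), among 14097 genes. In GRCr8 the genes Oas1i, Oas1d, Oas1a, Oas1h, Oas1f, Oas1b, Oas1e, Oas1k, Oas3 and Oas2 stand in this order in a single cluster on chromosome 12, and Oasl and Oasl2 stand side by side elsewhere on it. Oas3, which was not called between siRNAs, thus lies between Oas1k and Oas2.

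Of the listed partners of the 2-5A synthetases, the rows Oas1g (log2 6.21 without PE, 5.35 with PE) and Oas1i (3.85 and 3.41) were called higher in both siRNA comparisons. Counts of both rows were not whole, as described. GRCr8 gives Oas1g as a synonym of Oas1a, so its row does not stand for a separate paralogue there. Oas1i was not called by DESeq2 in either comparison (adjusted p = 0.0820 and 0.0671), nor without PE by limma-voom (0.0601). Abce1, which recycles ribosomes, was not called between siRNAs (0.32 and 0.26) but rose with PE in siNeg (0.81, adjusted p = 0.000272) and in siSlc25a26 (0.75, adjusted p = 0.000161). The latter lay inside the 1.5-fold threshold with limma on log2(FPKM + 1) (0.55) and log2(FPKM + 0.1) (0.56). Pde12, which degrades 2-5A, was not called between siRNAs (0.38 and 0.43).

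Of 11 genes around PKR, all tested, 0 were called in either direction in either siRNA comparison by edgeR, DESeq2 or limma-voom, and their medians were 0.21 and 0.12 against 0.01 and -0.00 over all genes. By edgeR, 8.92% of all genes tested were called higher and 7.2% lower without PE, and 7.71% and 8.1% with PE. A count of 0 among 11 genes is close to such shares, so it does not set these genes apart. These are the activator Prkra (-0.45 and -0.46), the inhibitors Tarbp2 and Dnajc3, the eIF2 subunits, the eIF2 phosphatase subunits Ppp1r15a (0.33 and 0.47) and Ppp1r15b (0.53 and 0.50), and the other eIF2 kinases. At an unadjusted p under 0.05, edgeR gave 5 higher and 2 lower without PE, and 4 higher and 2 lower with PE, all inside the 1.5-fold line. Of 7 genes downstream of the eIF2 kinases through ATF4, 2 were called higher in both siRNA comparisons and 0 lower. These were Ddit3, the gene for CHOP (0.74 and 0.76), and the stress factor Atf3 (1.33 and 1.67), while Trib3 (-0.32 and -0.16), Asns (-0.45 and -0.21) and Chac1 (0.06 and -0.06) were not called. With PE in siNeg, Ddit3 (-0.67), Chac1 (-0.65) and Trib3 (-0.59) were called lower. The last was inside the 1.5-fold line without siNeg replicate 1 (-0.56), siNeg replicate 2 (-0.58) or siNeg.PE replicate 1 (-0.55), as was Chac1 without siNeg replicate 1 (-0.58). Trib3 was also inside it with DESeq2 (-0.58), with DESeq2 size factors in edgeR (-0.58) and with all 12 libraries in 1 fit (-0.58).

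Around ADAR, 2 of 5 listed genes could be tested, and 1 was called higher in each siRNA comparison. Adarb1, the gene for the second editing enzyme ADAR2, was not called between siRNAs (-0.44 and 0.05) and was called lower with PE in siNeg (-0.76, adjusted p = 8.21e-05). Zbp1, the other sensor that binds Z-form RNA as the long ADAR isoform does, was at 0, 2 and 1 counts in siNeg and at 579, 375 and 401 counts in siSlc25a26. The ratio for depth was 406 (95% exact counting interval 139 to 1971), and with PE the summed counts were 2 and 249, a ratio of 121 (33.3 to 1009). Zbp1 passed the filter on low counts only through its high group in both comparisons, so its calls there are no support beyond these counts. In siSlc25a26, Zbp1 fell with PE (log2 -2.23, adjusted p = 1.68e-05), from 19.6, 12.3 and 13.9 CPM to 3.13, 3.59 and 2.92 CPM.

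Of 14 genes for the sensing and binding of double-stranded RNA, 4 were called higher in both siRNA comparisons and 0 lower. All 4 are sensors: Dhx58 (LGP2; 5.95 and 5.76), Ifih1 (MDA5; 4.22 and 3.59), Ddx58 (RIG-I; 4.03 and 3.77) and the endosomal receptor Tlr3 (2.28 and 1.67). Mavs, the mitochondrial adaptor of RIG-I and MDA5, was not called (-0.17 and -0.09), and the binding and processing proteins such as Dhx9, Stau1, Dicer1 and Drosha were not called either. Ifih1 resembled Eif2ak2 in its response to PE, with a called rise in siNeg (0.77, adjusted p = 0.0107, though 0.44 and inside the 1.5-fold threshold on log2(FPKM + 1)) and a difference of PE effects of -0.65 (adjusted p = 0.0465). Its difference lost the call when any of the same 9 libraries as for Eif2ak2 was left out, with adjusted p from 0.0578 to 0.133. It was also lost with limma-voom (adjusted p = 0.0522), with DESeq2 size factors in edgeR (0.0541) and with limma on log2(FPKM + 1) (0.0612).

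Of the interferon ligands and receptors, 7 of 15 listed genes could be tested without PE and 1 was called. Ifnb1, the gene for interferon β, had 1, 0 and 0 counts in siNeg and 50, 53 and 55 counts in siSlc25a26. The ratio for depth was 142 (95% exact counting interval 25.1 to 5645). Ifnb1 was the gene called, and it passed the filter on low counts only through siSlc25a26, so that call is no support beyond these counts. With PE it had 0 counts in all siNeg.PE libraries and 4, 7 and 7 counts in siSlc25a26.PE. Set against 3 counts over the siNeg.PE group, the ratio for depth was 5.85, without an interval. With PE 6 listed genes could be tested and 0 were called. The receptor genes Ifnar1 (0.10 and 0.14) and Ifnar2 (0.41 and 0.33) were not called. Among transcription factors of the interferon response, the ISGF3 subunits Stat2 (2.79 and 2.46) and Irf9 (2.20 and 2.13) were called higher in both siRNA comparisons, together with Irf7 (6.12 and 6.77) and Irf1 (1.30 with PE). Irf3, which is activated by phosphorylation, was not called (0.43 and 0.30).

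**Figure D5:**
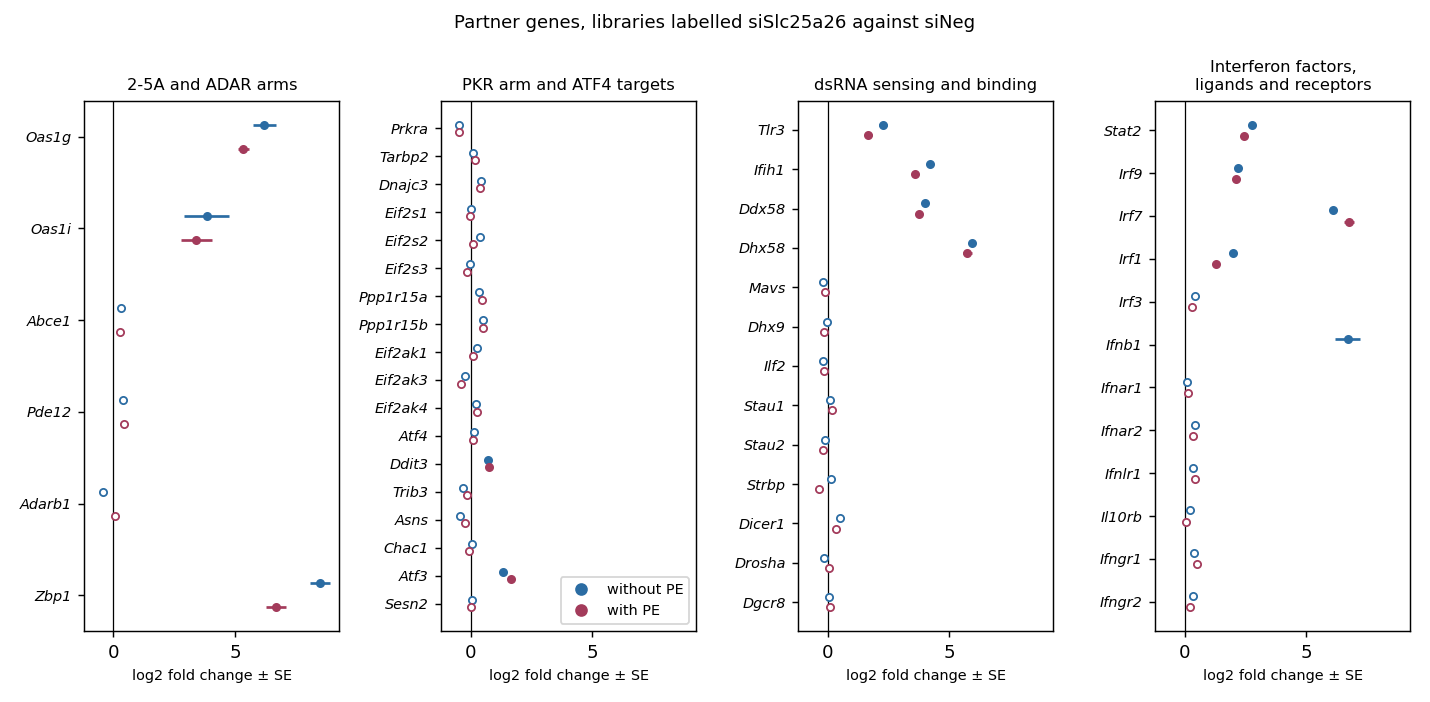
Log2 fold change with standard error of partner genes that could be tested, siSlc25a26 against siNeg without PE (blue) and with PE (red), filled where called. The sensors Dhx58, Ifih1, Ddx58 and Tlr3 and the interferon factors Stat2, Irf9, Irf7 and Irf1 lie to the right. So do Zbp1 and the rows Oas1g and Oas1i, and together these span 1.30 to 8.51. The PKR partners lie between -0.46 and 0.53.

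No immune marker was called higher beside these genes. Of those tested, 0 of 9 were called higher and 6 lower in siSlc25a26 without PE, and 0 of 8 higher and 2 lower with PE, with the same counts by DESeq2 and limma-voom and 0 higher at an unadjusted p under 0.05. The T cell marker Cd3e was at 0 in siNeg, siSlc25a26 and siSlc25a26.PE. Of 10 fibroblast markers 0 were called higher and 7 lower without PE, and 1 higher and 5 lower with PE, whereas of 10 cardiomyocyte markers 0 were called higher and 1 lower without PE and 0 either way with PE, where 1 higher and 4 lower had an unadjusted p under 0.05. Smooth muscle markers had 0 of 6 higher and 4 lower without PE and 0 higher and 3 lower with PE, and endothelial markers had 0 of 7 higher and 1 lower without PE and 0 of 6 either way with PE. In bulk RNA, fewer cells of a type and less RNA per cell cannot be told apart, and the part of the fibroblast and immune shift in the values above was not tested.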

How the data were processed

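Deposited per-gene values of 12 NRVM libraries were analysed. Per gene, the authors deposited expected counts, 21.2% of them not whole, which were rounded here because the tests take whole counts. The planned design had assumed plain counts. They also deposited FPKM, scaled by gene length and library total, which were used as given. Per the submitters' processing notes, HISAT, Bowtie2 and the build Rnor_6.0 were used. Their roles, versions, the counting program, annotation and strandedness are not given in the sources used here. Without strand, reads of a gene and an antisense partner cannot be told apart. Of 18469 NCBI Gene identifiers, 16962 matched RefSeq (GRCr8), including all 9 genes described; it gave gene order and promoters only, and coordinates printed are those of GRCr8.

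Counts were fitted with edgeR 4.0.16 in R 4.3.3 (TMM factors, filterByExpr with a minimum count of 10, quasi-likelihood F-test, Benjamini-Hochberg over all genes tested), using the 6 libraries of each comparison, or all 12 for the difference of PE effects. SE was the log2 fold change over the root of F. CPM used TMM factors of all 12 libraries. Profiles were compared on log2 CPM with a prior count of 2. Intervals and floors cover counting error only. No replicate pair was a repeat deposit (chi-square per gene at least 5.34). Alternatives were DESeq2 1.42.0, limma-voom and limma 3.58.1 on log2(FPKM + 1) and log2(FPKM + 0.1), DESeq2 size factors, no filter, at least 10 counts in every library, a replicate block, all 12 libraries in 1 fit, no fold threshold and leaving out each library. Summing the Oas1 rows was added after seeing the data. The main edgeR fit of siSlc25a26 against siNeg without PE was tested on simulated counts. The other comparisons and the alternatives were not.

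The genes, partner lists and marker lists were chosen with earlier results of these data known. All 9 genes, the label checks (Slc25a26, Nppa), listed partners and the 3 most similar genes per profile are named. The labels give no batch. Some listed partners are not reported here.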

Additional observations from a re-analysis of the deposited data

Results flagged for a closer look

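Eif2ak2 and Adar had an adjusted p below 0.05 for the difference of PE effects between the siRNAs, by the interaction test of edgeR on all 12 libraries, and Eif2ak2 alone also passed the 1.5-fold threshold. For Eif2ak2 the PE effect in siSlc25a26 less that in siNeg was -0.95 on the log2 scale (adjusted p = 0.0402), from 0.95 in siNeg and 0.03 in siSlc25a26. All 3 siNeg.PE libraries lay above all siNeg libraries, whereas 1 siSlc25a26.PE library lay above and 2 lay below all siSlc25a26 libraries. The call was lost in 9 of the 12 fits that left out a library (adjusted p from 0.0627 to 0.111). For Adar the difference was -0.44 (adjusted p = 0.00693), inside that threshold, from -0.06 in siNeg and -0.49 in siSlc25a26, where all 3 siSlc25a26.PE libraries lay below the others.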

How the results depend on the processing

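Of 336 alternative values for the 22 calls on the 9 genes, 322 kept direction and call, 14 lost the call and 0 changed sign. The 22 include the calls of Oas2 between the siRNAs, where it passed the filter on low counts only through its high group. The losses were on Oasl with PE in siNeg (4) and on the difference of PE effects of Eif2ak2 (10, limma-voom at an adjusted p of 0.0501 among them). With PE in siNeg, the 2 genes called became 1 with limma on log2(FPKM + 1), and 1 to 4 when a library was left out. For the difference of PE effects, the 1 gene called became 0 with limma-voom, 5 with limma on log2(FPKM + 1), 2 without the fold threshold and 0 to 1 when a library was left out. In the other 3 comparisons the counts stayed within 1.5 times the main ones. The cause of these shifts was not tested.

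Whether the replicate numbers pair the libraries was not settled. Same-numbered libraries deviated together at correlations of -0.0913 to 0.0562 and 0.0252 to 0.209 in the comparisons of siRNAs without and with PE. For PE in siNeg and siSlc25a26 they were 0.00943 to 0.217 and -0.0730 to -0.00536. Above 0.1 lay 2 of 3 pairs between siRNAs with PE and 2 of 3 for PE in siNeg, and 0 of 3 in each of the others. Of 6 libraries, 2, 4, 5 and 0 correlated best with their own number. With the replicate number as a block, 7, 7, 3 and 5 genes were called in these comparisons, and 2 for the difference of PE effects, where Oas1b was added at -0.66.

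Direction changed only in values that were not called. Eif2ak2 with PE in siSlc25a26 was -0.000272 with limma-voom, -0.169 and -0.174 with limma on FPKM at pseudocounts of 1 and 0.1, and -0.18 to 0.16 when a library was left out. The difference of PE effects of Oas2 was 0.78 with limma-voom and -0.60 to 2.43 when a library was left out. For the same difference the ranges were -0.39 to 0.10 for Oas1a and -0.72 to 0.65 for Oas1k. Oas3 ranged from -0.15 to 0.33 between siRNAs without PE and from -0.13 to 0.0153 with PE in siSlc25a26. Oas1k, removed by the main filter, was called higher between siRNAs without it (3.13, adjusted p = 0.00547, and 2.94, adjusted p = 0.0271, with PE), but with PE it was not called in the filtered fits without siNeg.PE replicate 1 (2.42, adjusted p = 0.0575) or 3 (2.93, adjusted p = 0.0666), where it passed the filter, at 0 to 21.3 deposited counts a library, where depth limits precision.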
